A study of Mus musculus with 7 samples.

Results

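The core clock loop of inguinal white fat was described in 10 genes, named by their known roles in the mouse circadian clock. They are the activators Arntl, Clock and Npas2 and the repressors Per1, Per2, Per3, Cry1, Cry2, Nr1d1 and Nr1d2. Earlier results of these data were known when they were chosen. All 10 were found by Entrez identifier among the 29517 genes of the count table, and all 10 were among the 19185 genes with enough counts to be tested. Messenger RNA had been sequenced from the groin's subcutaneous fat pad of untreated C57BL/6 mice on standard chow, in 4 libraries of the genotype labelled Wild-type (WT) and 3 of the genotype labelled TM4SF5-/- (KO). TM4SF5 is a tetraspanin-like membrane protein. The labels give neither the deleted part of the gene, nor whether the loss is limited to a cell type, nor sex, age or litter. The animals lived in a light and dark cycle, but the hour at which the fat was taken is not given. Libraries are called by their labels, so that KO 3 is the library labelled KO replicate 3.

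The mammalian clock is a feedback loop of transcription. ARNTL (also called BMAL1) pairs with CLOCK or its paralog NPAS2, binds E-box sequences and switches on the Per, Cry and Nr1d genes. The PER and CRY proteins then block that pair, while the nuclear receptors NR1D1 and NR1D2 (REV-ERB alpha and beta) sit on ROR elements of Arntl, Clock and Npas2 and silence them, in competition with the activating ROR receptors. In mouse peripheral tissues, fat included, Arntl and Npas2 messages therefore peak near the end of the night, and Nr1d1, Dbp and the Per messages peak by day and in the evening. The question put to the data was whether activators and repressors differed between the genotypes in opposite directions, which is the pattern that a difference in clock time also gives.

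The elements that wire the loop can be read in its promoters. RefSeq windows of 250 bases before to 50 bases after a start (GRCm38.p6, the assembly that mm10 represents) were present for 9 of the 10 genes. They were searched on both strands for the E-box (CACGTG), the E'-box (CACGTT), the D-box bound by DBP, TEF, HLF and NFIL3 (TTATGTAA or TTACGTAA), a strict ROR element (AANT followed directly by AGGTCA or GGGTCA) and the cAMP element (TGACGTCA). The 4 windows shown here all hold a match, and the matches in them did not overlap one another. Per1 is shown as a paralog of Per3 whose level did not separate the genotypes. The other Arntl window and the other Per1 window held no match, and Per2 had no window. Capitals mark the matches.
Arntl, second RefSeq start, chr7:113207261-113207560, plus strand: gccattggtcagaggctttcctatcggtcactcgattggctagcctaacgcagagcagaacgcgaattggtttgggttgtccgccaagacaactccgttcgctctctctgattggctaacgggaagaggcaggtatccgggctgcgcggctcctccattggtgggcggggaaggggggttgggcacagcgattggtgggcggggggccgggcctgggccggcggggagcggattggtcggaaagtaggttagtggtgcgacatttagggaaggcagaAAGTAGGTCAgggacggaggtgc
Per3, chr4:151044616-151044915, minus strand: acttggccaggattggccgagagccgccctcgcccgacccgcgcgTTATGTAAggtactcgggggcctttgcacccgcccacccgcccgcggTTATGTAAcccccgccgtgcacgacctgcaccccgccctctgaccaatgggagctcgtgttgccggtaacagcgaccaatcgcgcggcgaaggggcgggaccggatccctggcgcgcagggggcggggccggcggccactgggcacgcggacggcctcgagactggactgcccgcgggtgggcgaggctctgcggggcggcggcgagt
Nr1d1, chr11:98775328-98775627, minus strand: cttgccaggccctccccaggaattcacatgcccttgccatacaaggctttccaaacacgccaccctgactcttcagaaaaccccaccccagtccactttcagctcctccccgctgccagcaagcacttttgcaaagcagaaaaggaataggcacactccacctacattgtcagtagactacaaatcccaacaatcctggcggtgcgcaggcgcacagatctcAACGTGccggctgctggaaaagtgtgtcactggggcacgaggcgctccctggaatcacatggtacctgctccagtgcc
Per1, first RefSeq start, chr11:69098699-69098998, plus strand: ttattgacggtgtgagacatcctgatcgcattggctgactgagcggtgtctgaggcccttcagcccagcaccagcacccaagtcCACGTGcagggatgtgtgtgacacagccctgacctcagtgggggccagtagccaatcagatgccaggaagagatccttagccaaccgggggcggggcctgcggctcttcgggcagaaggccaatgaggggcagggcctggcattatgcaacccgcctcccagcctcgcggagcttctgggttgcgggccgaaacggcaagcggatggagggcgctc
The Arntl window carries a ROR element that begins 28 bases after the start. The Per3 window carries 2 D-boxes, which begin at -205 and -158 from the start, the Nr1d1 window an E'-box at -28, and the Per1 window an E-box at -166. Cry1 held an E-box and an E'-box, Cry2 an E'-box, and the windows of Clock, Npas2 and Nr1d2 held no match to these letters. Among 32851 mouse windows of this length, 7.15% held the E-box, 4.68% the E'-box, 1.06% a D-box, 0.435% this ROR element and 1.79% the cAMP element. A match is a run of letters and not a shown binding site.

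The 10 genes lie apart from one another in the genome (RefSeq, GRCm38.p6). The activators are Arntl (chr7:113178471-113314126), Clock (chr5:76209868-76305603) and Npas2 (chr1:39193702-39363240). The period genes are Per1 (chr11:69095108-69109965), Per2 (chr1:91415977-91459351) and Per3 (chr4:150997018-151044707), the cryptochromes Cry1 (chr10:85131700-85185054) and Cry2 (chr2:92403646-92434085), and the REV-ERB genes Nr1d1 (chr11:98767932-98775377) and Nr1d2 (chr14:18204056-18239106).

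Libraries held 49775077 to 60241436 counts. Tm4sf5 itself was barely expressed, at 0.567 ± 0.182 CPM (SD, n = 4; CPM is the count relative to the TMM-scaled library size) in WT and 0.221 ± 0.117 CPM (SD, n = 3) in KO. The library labelled KO 3, at 17 counts (0.353 CPM), lay above WT 4, at 20 counts (0.323 CPM), so this gene does not check every label, and results are also given without that pair. Over all 19185 genes, edgeR's quasi-likelihood test with Benjamini-Hochberg adjustment called 0 genes (0%) at an adjusted p under 0.05, while 4187 genes (21.8%) had an unadjusted p under 0.05, DESeq2 called 2158 and limma-voom 1. No clock gene below passed edgeR's adjustment over all genes, and each is therefore described by its values, its fold and its unadjusted p.

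Among the activators, Arntl and Npas2 were lower in KO and Clock was at a like level. Arntl, the partner that every activating pair needs, stood at 15.2, 15.5, 18.5 and 10.2 CPM in WT 1 to WT 4 and at 3.8, 5.39 and 10.5 CPM in KO 1 to KO 3. KO 1 and KO 2 lay below every WT library, and KO 3 lay just above WT 4, so the groups overlapped. The fold was 2.25 in favour of WT (log2 fold change -1.17, SE 0.37, edgeR unadjusted p = 0.0125, adjusted p = 0.134). Without KO 2 the unadjusted p was 0.052, and without KO 3 and WT 4 the log2 fold change was -1.83 (SE 0.24).

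Npas2, the CLOCK paralog that can take its place beside ARNTL, was the only member whose groups did not overlap. It held 346, 168, 294 and 96 counts in WT 1 to WT 4 (5.63, 2.54, 4.55 and 1.55 CPM) and 28, 48 and 34 counts in KO 1 to KO 3 (0.705, 1.06 and 0.707 CPM). WT varied 3.64-fold from its lowest to its highest library and KO 1.5-fold. The level was 4.32-fold lower in KO (log2 fold change -2.11, SE 0.49, edgeR unadjusted p = 0.00255, adjusted p = 0.0967), on the side where 8.92% of all genes were free of overlap, and the unadjusted p stayed under 0.05 in each of the 17 alternative settings. In KO 3 the pair of activators parted: Npas2 was as low there as in KO 1, while Arntl was at the level of WT 4. The ratio of Npas2 to Arntl counts was 0.0671 in KO 3, below the 0.152 to 0.371 of the WT libraries and the 0.185 and 0.196 of KO 1 and KO 2.

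Clock, which encodes the histone acetyltransferase partner of ARNTL, had 57.1, 51.9, 74.6 and 40.5 CPM in WT 1 to WT 4 and 39.9, 48.0 and 64.9 CPM in KO 1 to KO 3. The groups were interleaved, with a log2 fold change of -0.14 (SE 0.24, edgeR unadjusted p = 0.583). Its sign turned without WT 3 (0.03) and without KO 1 (0.01). Of the 3 activators, 2 thus had an unadjusted p under 0.05 on the lower side, where 9.51% of all genes tested did.

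The log2 fold changes of the repressors were all above 0, with Per2 and Per3 farthest, although those of Per1 and Cry1 were below 0 when libraries were scaled by total counts alone. The median of the 7 log2 fold changes was 0.57, against -0.04 over all genes tested, of which 46.9% were above 0. Of the 7, 3 had an unadjusted p under 0.05 on the higher side, where 12.3% of all genes did. No repressor was free of overlap between the groups, while 11.4% of all genes were, on that side. Over both arms, 1 of 10 members did not overlap, against 20.3% of all genes.

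Per2, the period gene most tied to the core oscillation in mouse, had 31.5, 18.1, 16 and 22.1 CPM in WT 1 to WT 4 and 51.0, 50.5 and 29.3 CPM in KO 1 to KO 3. Only WT 1 reached above the lowest KO library, KO 3. The level was 1.99-fold higher in KO (log2 fold change 0.99, SE 0.28, edgeR unadjusted p = 0.0077, adjusted p = 0.117). Without WT 2 and WT 4 together the unadjusted p was 0.0504, and it stayed under 0.05 in the other 16 of 17 settings.

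Per3, a period gene that the loop can run without, showed the widest spread of the members inside WT by the SD of log2 CPM, 0.923, with Npas2 next. Its level was 77.0, 22.5, 28.4 and 74.4 CPM in WT 1 to WT 4 and 135, 133 and 64.3 CPM in KO 1 to KO 3. WT 1 and WT 4 lay above KO 3, and WT 2 and WT 3 lay far below. The log2 fold change was 1.13 (SE 0.48, edgeR unadjusted p = 0.0465, adjusted p = 0.223), and the unadjusted p rose above 0.05 without WT 2 (0.0837), without WT 3 (0.0991), without KO 1 (0.122) and without KO 2 (0.11). Total counts alone as the scaling gave an edgeR unadjusted p of 0.112, and removing both WT 2 and WT 4 gave 0.0693.

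Per1, a period gene that cAMP and glucocorticoid signals also induce, did not separate the genotypes. It had 91.0, 42.0, 55.6 and 50.7 CPM in WT 1 to WT 4 and 75.3, 78.4 and 58.9 CPM in KO 1 to KO 3, and WT 1 was the highest of all 7 libraries. The log2 fold change was 0.24 (SE 0.26, edgeR unadjusted p = 0.379), and 0.52 without WT 1 (unadjusted p = 0.0202). The counts of Per2 relative to Per1, which need no scaling between libraries, were 0.346, 0.431, 0.289 and 0.436 in WT 1 to WT 4 and 0.677, 0.644 and 0.498 in KO 1 to KO 3. Every KO ratio lay above every WT ratio.

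Neither cryptochrome had an unadjusted p under 0.05. Cry1, the stronger repressor in mouse, had 9.5, 12.0, 8.70 and 12.3 CPM in WT 1 to WT 4 and 12.1, 12.9 and 13.8 CPM in KO 1 to KO 3, a log2 fold change of 0.29 (SE 0.18, edgeR unadjusted p = 0.14). WT 4 lay between KO 1 and KO 2. Cry1 messages peak in the night, after those of the Per genes, so by phase it stands nearer to the activators than its role does. Cry2 had 57.3, 43.2, 57.2 and 41.0 CPM in WT and 73.8, 75.9 and 44.8 CPM in KO, a log2 fold change of 0.38 (SE 0.22, unadjusted p = 0.122). KO 3 sat inside the WT range, and without KO 3 the log2 fold change of Cry2 was 0.61 (unadjusted p = 0.013).

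The REV-ERB genes were the most abundant members. Nr1d1 had 141, 92.0, 164 and 103 CPM in WT 1 to WT 4 and 211, 231 and 140 CPM in KO 1 to KO 3, so that KO 3 was again inside the WT range. It was 1.55-fold higher in KO (log2 fold change 0.63, SE 0.25, edgeR unadjusted p = 0.0367, adjusted p = 0.202). That p rose above 0.05 without WT 2 (0.0842), without WT 4 (0.0801), without KO 1 (0.0946) and without KO 2 (0.115). With total counts alone the log2 fold change of Nr1d1 was 0.31 (edgeR unadjusted p = 0.203), and without WT 2 and WT 4 it was 0.345 (edgeR unadjusted p = 0.223). Nr1d1 overlaps Thra, a thyroid hormone receptor gene, on chromosome 11, and the strand rule of the counting is not given. Thra had a log2 fold change of 0.11 (SE 0.25, unadjusted p = 0.679). Nr1d2 had 106, 58.5, 65.1 and 99.6 CPM in WT and 124, 168 and 74.7 CPM in KO, a log2 fold change of 0.57 (SE 0.31, unadjusted p = 0.105) that became 0.85 without KO 3 (unadjusted p = 0.0147).

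**Figure D1:**
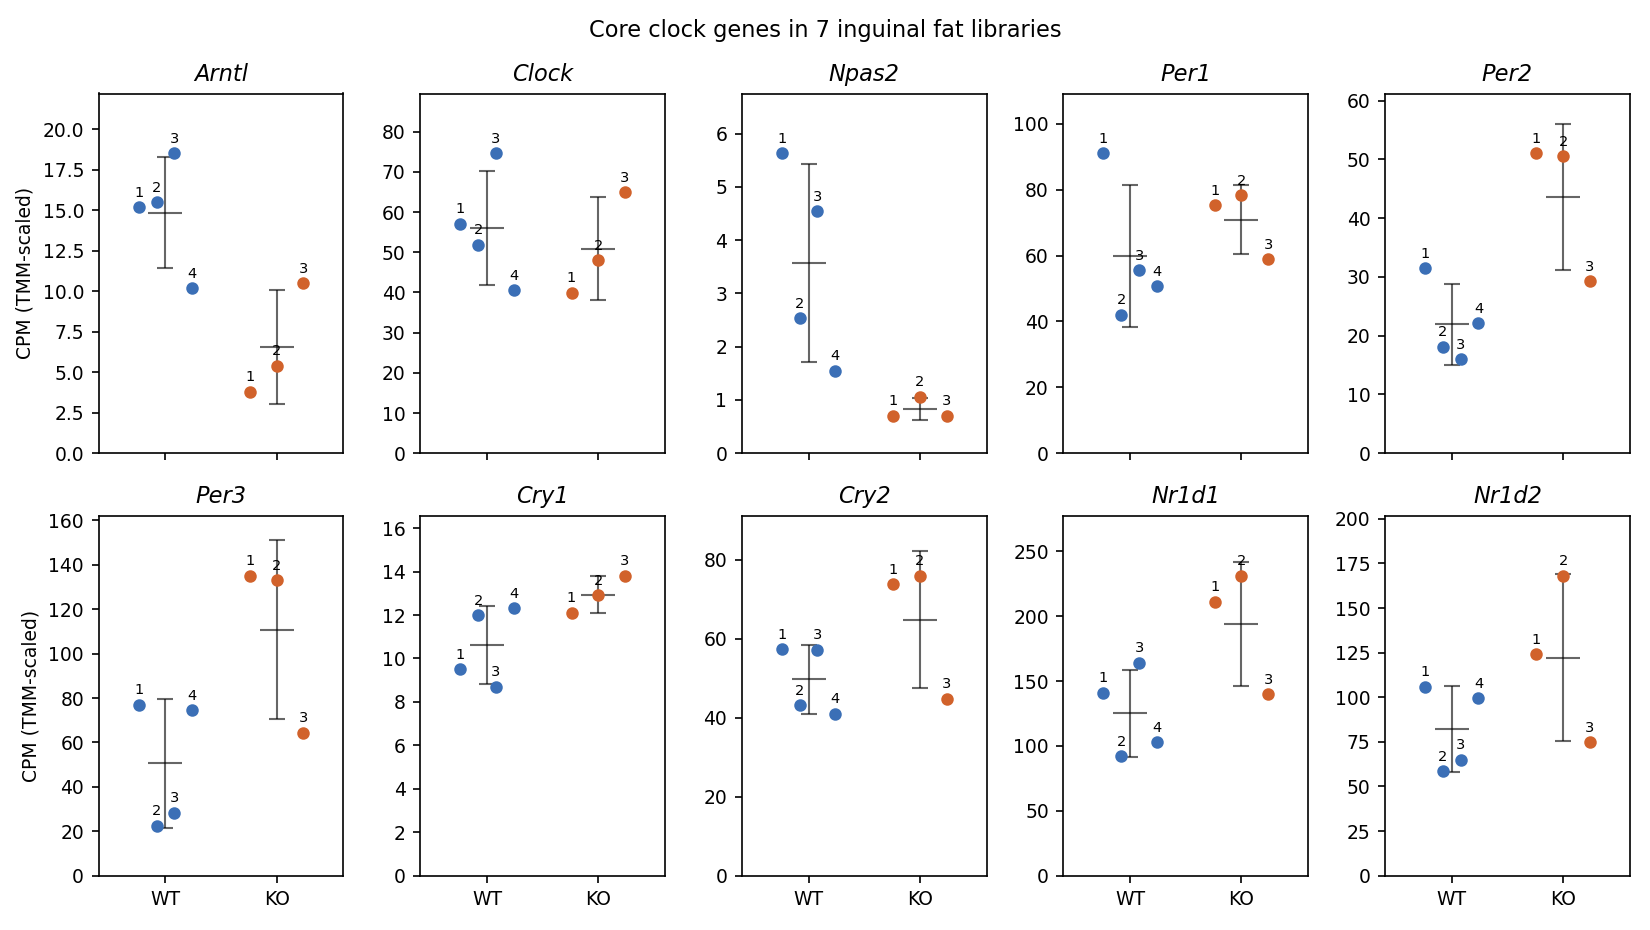
CPM of the 10 core clock genes in each library, with numbers giving the replicate and bars the group mean and SD (WT n = 4, KO n = 3). Npas2 is the panel in which every KO point lies below every WT point, and KO 3 sits nearest to WT in Arntl, Per2, Per3, Nr1d1 and Nr1d2.

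Per kilobase of exon, which allows levels of different genes to be compared, the order in WT ran from Nr1d1 (45.9 ± 12.2 CPM per kb, SD, n = 4) through Nr1d2 (17.6 ± 5.13) to Cry2 (11.4 ± 2.03) and Per1 (10.6 ± 3.83). Per3 (8.43 ± 4.85), Clock (5.64 ± 1.43), Arntl (4.81 ± 1.12), Per2 (3.76 ± 1.18) and Cry1 (3.51 ± 0.587) followed, each within an SD or so of the next, and Npas2 (0.842 ± 0.439) came last. In KO, on the same per-kb scale, Per3 (18.4 ± 6.69 CPM per kb, SD, n = 3) stood next after Nr1d1 (71.3 ± 17.7) and Nr1d2 (26.2). Per2 (7.48 ± 2.12) stood above Clock (5.13 ± 1.29), while Arntl (2.13 ± 1.14) lay below Cry1 (4.28 ± 0.280) and Npas2 (0.194 ± 0.0478) was again last. The spread of log2 CPM inside WT was wide for Per3 and Npas2, whose SDs of 0.923 and 0.832 exceeded those of 89.6% and 87.3% of all genes tested. For Cry1 and Cry2 the SDs were 0.244 and 0.258, above those of 38.3% and 40.6% of genes.

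Set against each other, the activator and repressor arms separated KO 1 and KO 2 from the WT libraries, while within WT the arms showed no inverse order. The mean log2 CPM of the 3 activators minus that of the 7 repressors, from which the scaling between libraries cancels, was -1.73, -1.39, -1.07 and -2.40 in WT 1 to WT 4 and -3.93, -3.60 and -2.63 in KO 1 to KO 3. The group means were -1.65 ± 0.57 (SD, n = 4) and -3.39 ± 0.68 (SD, n = 3), a difference of -1.74 for KO minus WT. Every KO library lay below every WT library on this log2 scale, but KO 3 and WT 4 were neighbours, closer to each other than to the rest of their groups. Among the activators, only Npas2 was lower in KO 3 (0.707 CPM) than in WT 4 (1.55 CPM). Arntl (10.5 against 10.2 CPM) and Clock (64.9 against 40.5 CPM) were higher in KO 3. The lower activator mean of KO 3 (2.998, against 3.119 in WT 4) thus came from Npas2 alone, which had 34 counts in KO 3. The score was not computed without Npas2. The difference between the group means was -2.37 without KO 3 and WT 4, whose removal widens it by construction. Leaving out single libraries gave -2.12 to -1.46. With Cry1 set aside or moved to the activators the difference stayed within the SD of the libraries. As a score over chosen members it was given no test.

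**Figure D2:**
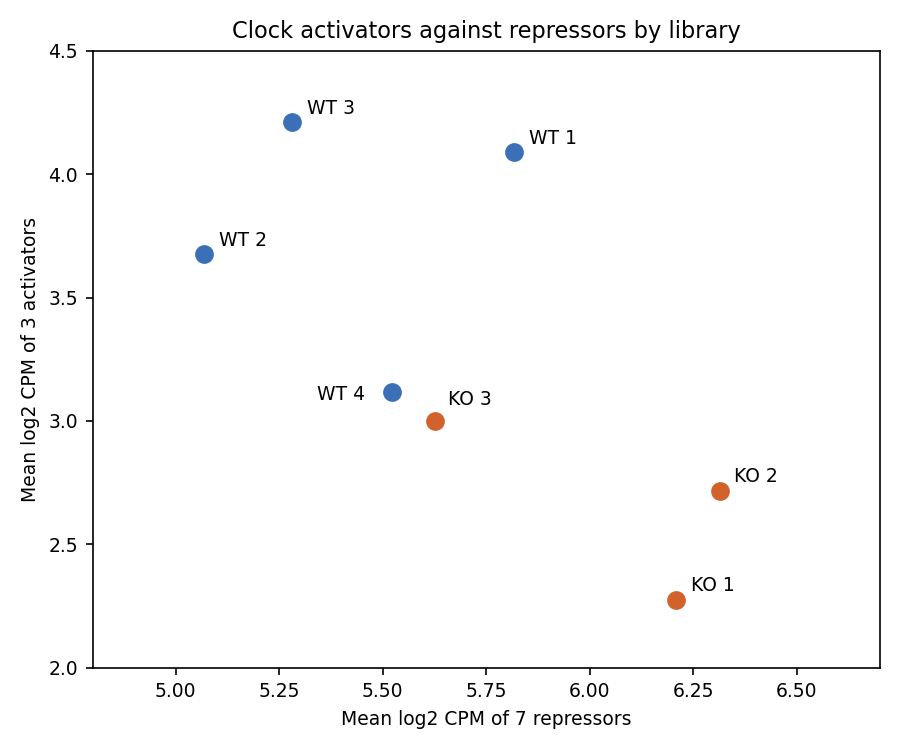
Mean log2 CPM of the 7 repressors (horizontal) and of the 3 activators (vertical) for each library, WT in blue and KO in orange. KO 1 and KO 2 lie at the lower right, WT 2 and WT 3 at the left, and KO 3 lies beside WT 4.

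Libraries of 1 genotype also differed in the levels of clock genes. In WT 2 and WT 3, Per3 was at 22.5 and 28.4 CPM and Arntl at 15.5 and 18.5 CPM, whereas WT 4 paired 74.4 CPM of Per3 with 10.2 CPM of Arntl. In KO, the library with the most Arntl, KO 3, had the least Per1, Per2, Per3, Cry2, Nr1d1 and Nr1d2 but the most Cry1. WT 1 went against the inverse order, with 77.0 CPM of Per3 beside 15.2 CPM of Arntl and the most Npas2 of any library. The counts of Arntl relative to Nr1d1 were 0.107, 0.169, 0.113 and 0.0987 in WT 1 to WT 4, 0.018 and 0.0233 in KO 1 and KO 2, and 0.0754 in KO 3. KO 3 and WT 4 lay nearest to the other group on the activator minus repressor score, so leaving them out widens that difference by construction. Without KO 3 and WT 4, 5 repressors (Per2, Per3, Cry2, Nr1d1 and Nr1d2) had an edgeR unadjusted p under 0.05 on the higher side. On that side 11% of all genes did. Arntl and Npas2 had one on the lower side, where 11% did too. Again 0 genes of the table passed edgeR's adjustment there, with 4297 at an unadjusted p under 0.05. DESeq2, on all 7 libraries, called Npas2 (adjusted p = 0.000896), Arntl (adjusted p = 0.0221) and Per2 (adjusted p = 0.0226), while that tool called 12.8% of the genes it could adjust, 5.49% lower and 7.26% higher. Over the 17 settings the adjusted p ran from 0.000896 to 0.327 for Npas2, from 0.0221 to 0.415 for Arntl and from 0.0226 to 0.378 for Per2.

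Among genes next to the loop, the D-box activators, 2 further repressors, Usp2, Hdac3 and Nampt were higher in KO. By log2 fold change, 18 further clock genes lay above 0 (46.9% of all genes did) and 5 lay below it. Of 23 further clock genes, all tested, 8 had an unadjusted p under 0.05 on the higher side (12.3% of all genes did) and 0 on the lower side (9.51% did), with a median log2 fold change of 0.37 (-0.04 over all genes). The D-box activators came together: Dbp had 92.6, 36.5, 30.7 and 96.2 CPM in WT 1 to WT 4 and 268, 215 and 90.2 CPM in KO 1 to KO 3, a log2 fold change of 1.58 (SE 0.50, edgeR unadjusted p = 0.0141). WT 1, WT 4 and KO 3 were alike in Dbp, as they were in Per3. A link between these genes was not tested. Tef (1.02, SE 0.30, unadjusted p = 0.00977) and Hlf (1.18, SE 0.40, unadjusted p = 0.0177) had the same order of groups. Tef was free of overlap by a small margin, with 182 CPM in KO 3 and 181 CPM in WT 4. Of the 23 genes, 5 were free of overlap on the higher side (11.4% of all genes were) and 1 on the lower side (8.92% were). Nfil3, which represses through the same D-box, had -0.04 (SE 0.31, unadjusted p = 0.896).

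The further repressors Bhlhe41 (log2 fold change 1.13, SE 0.27, edgeR unadjusted p = 0.00301), a competitor for E-boxes, and Ciart (1.49, SE 0.54, unadjusted p = 0.0242), which binds ARNTL, were also higher, and Bhlhe40 had 0.75 (unadjusted p = 0.0526). Of the receptors that activate through ROR elements, Rora had 0.41 (unadjusted p = 0.0874) and Rorb, at a mean of 0.557 CPM, had -0.45 (unadjusted p = 0.527). The Arntl paralog Arntl2 lay on the other side from Arntl, at 0.95 (SE 0.43, unadjusted p = 0.0565). Of 9 genes for clock protein turnover and corepressors, 2 had an unadjusted p under 0.05, a share near the 21.8% of all genes: the deubiquitinase gene Usp2 (1.10, SE 0.32, unadjusted p = 0.00949) and the corepressor histone deacetylase gene Hdac3 (0.37, SE 0.13, unadjusted p = 0.0241). The kinases Csnk1d (0.08) and Csnk1e (0.16), which mark PER proteins for decay, had unadjusted p-values of 0.546 and 0.403. Of the 4 outputs, Nampt, an enzyme of NAD synthesis, had 0.51 (SE 0.18, unadjusted p = 0.023), Wee1 0.07, Tspan4 0.63 and Tsc22d3 -0.29, with unadjusted p-values of 0.802, 0.139 and 0.0548.

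The genes were also grouped by textbook phase, in lists that share members with the groups above. These lists were chosen with earlier results of these data known. They leave out other clock genes given above, among them the member Cry2 and Bhlhe40, Nampt, Tspan4 and Wee1. Of 11 genes that peak by day or evening (Per1, Per2, Per3, Nr1d1, Nr1d2, Dbp, Tef, Hlf, Ciart, Bhlhe41 and Usp2), 9 had an unadjusted p under 0.05 on the higher side (12.3% of all genes did) and 11 had a log2 fold change above 0 (46.9% did), with a median of 1.10. Of 5 that peak at night (Arntl, Clock, Npas2, Cry1 and Nfil3), 2 were on the lower side at that threshold (9.51% of all genes were) and 0 on the higher side, with a median of -0.14.

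**Figure D3:**
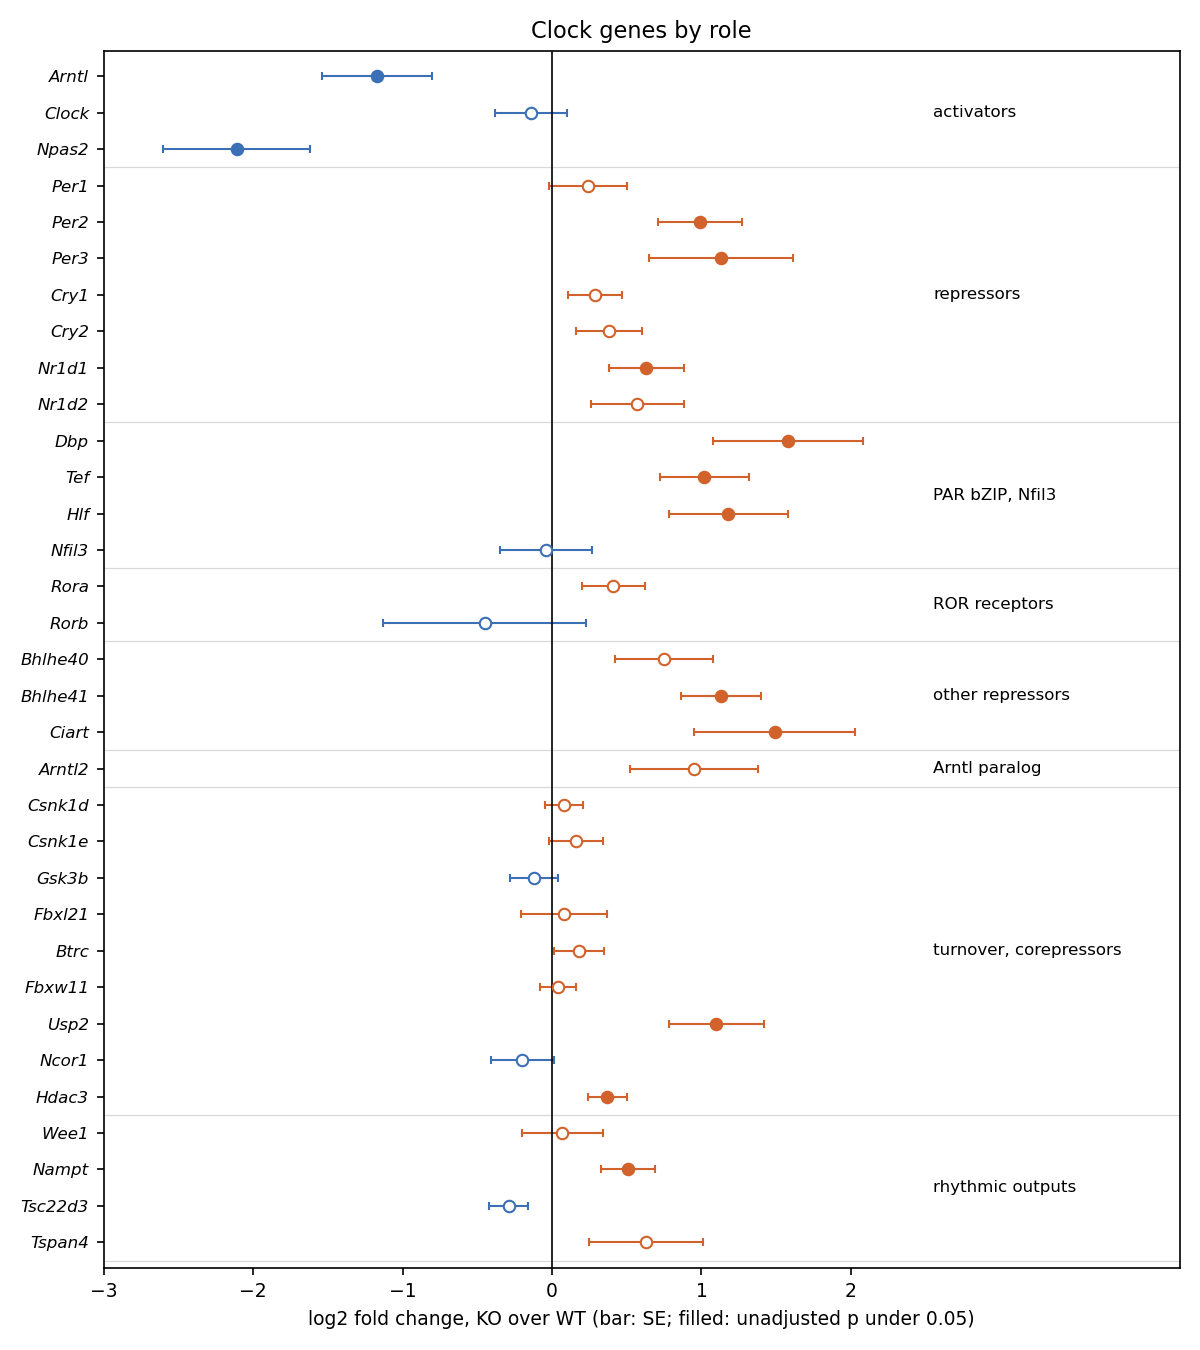
log2 fold change (KO over WT) with its SE for the 10 members and 23 further clock genes, grouped by role, filled where the unadjusted p was under 0.05. Arntl and Npas2 lie left of 0 and every repressor lies right of it, though with scaling by total counts alone, not plotted, Per1 and Cry1 were below 0.

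**Figure D4:**
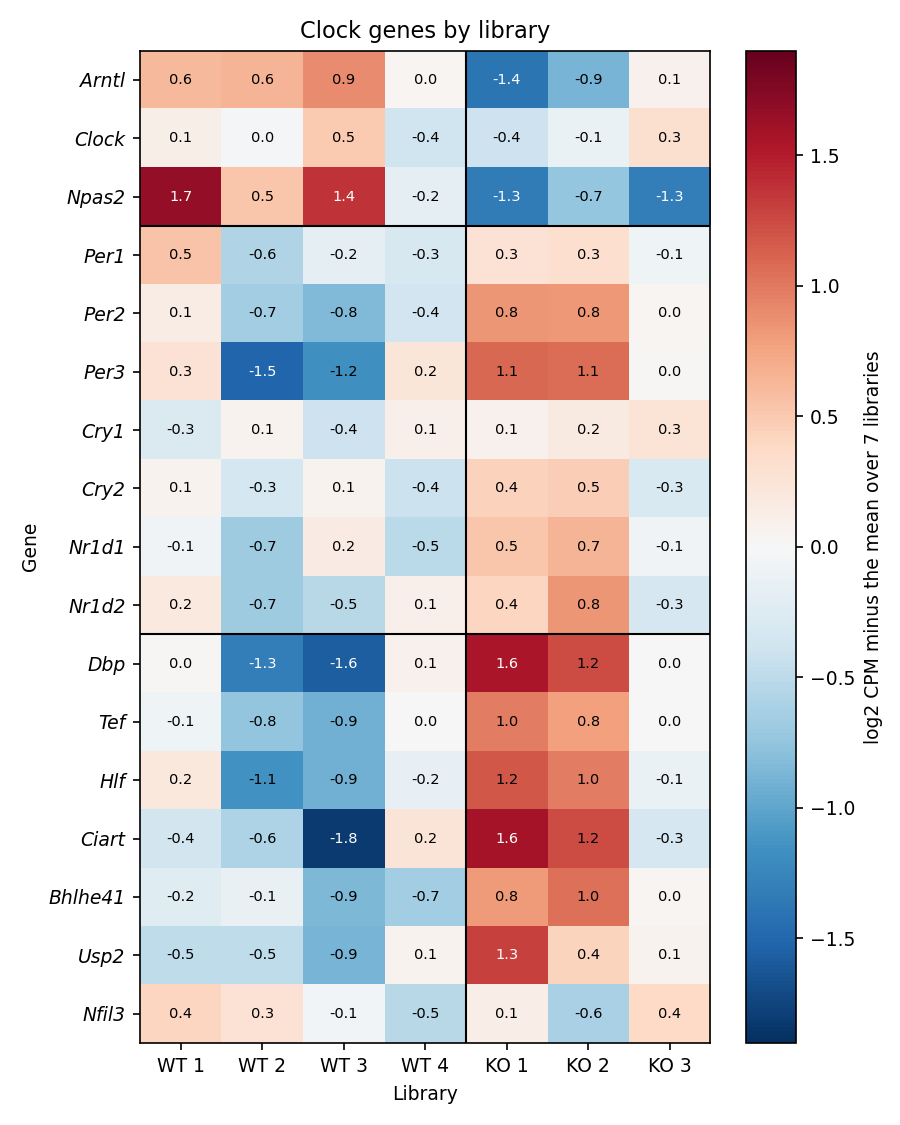
log2 CPM minus the gene's mean over the 7 libraries, for the 10 members (activators above, repressors in the middle) and 7 further clock genes. WT 2 and WT 3 are low and KO 1 and KO 2 high in Per2, Per3, Dbp, Tef and Hlf, with WT 1, WT 4 and KO 3 between them.

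The summed adipocyte marker level followed a like order of libraries, though single markers differed, and macrophage marker levels separated the groups in another order. In bulk tissue, fewer cells of a type and less RNA per cell cannot be told apart. The summed level of 8 adipocyte markers ran from 9560 to 14400 CPM in WT and from 15400 to 27900 CPM in KO, 4 of the 8 had an unadjusted p under 0.05 on the higher side (12.3% of all genes did), and none was at 0 in any library. KO 3, at 15400 CPM, was the KO library nearest to WT here too, and WT 3 and WT 2, at 9560 and 9860 CPM, were lowest. Fabp4 and Cfd were the most abundant of the 8 adipocyte markers. Of the 8, 7 had a log2 fold change above 0, and Lep had -0.56 (SE 0.70, edgeR unadjusted p = 0.447). Lep was highest in WT 2 (520 CPM) and Retn in KO 3 (921 CPM). All 8 macrophage markers had an unadjusted p under 0.05 on the lower side (9.51% of all genes did), at a sum of 1320 to 1980 CPM in WT and 449 to 695 CPM in KO. Mitochondrially encoded messages took 8.07% to 12.1% of counts in WT and 16.1% to 18.9% in KO. The part of these differences in the levels of the clock genes was not tested.

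Other markers had another order. The 6 brown and beige adipocyte markers summed to 148 to 962 CPM in WT and to 2390, 568 and 1550 CPM in KO 1 to KO 3, so that KO 2, with 133 CPM of Per3, lay below WT 4 in them, and 3 of the 6 had an unadjusted p under 0.05 on the higher side (12.3% of all genes did). The 8 lymphocyte markers (356 to 1180 CPM in WT, 274 to 784 CPM in KO), 6 progenitor and fibroblast markers (842 to 13100 and 1290 to 3850 CPM), 4 endothelial markers (204 to 755 and 295 to 572 CPM) and 3 red blood cell markers (141 to 532 and 265 to 333 CPM) overlapped between the groups. The 5 skeletal muscle markers were uneven, at 963 CPM in WT 4, 376 CPM in WT 2 and 2.21 CPM in WT 3, and at 10.6 to 124 CPM in KO, with Ckm and Myh4 at 0 in at least 1 library. Without WT 2 and WT 4, the WT libraries with most muscle marker counts, Arntl and Npas2 kept an edgeR unadjusted p under 0.05. No repressor other than Cry1 (0.51, edgeR unadjusted p = 0.0376) had one. Of 19133 genes tested in that setting, 1580 had such a p on the lower side and 1636 on the higher side. The 3 mammary epithelial markers that could be tested summed to 1.04 to 2.43 CPM in WT and 1.58 to 10.1 CPM in KO. Of the 3, 2 had an unadjusted p under 0.05 on the higher side (12.3% of all genes did). These were Krt8 and Krt18, both near the floor. In KO 2 they had 0.088 and 0.11 CPM, inside the WT range. The part of all these markers in the clock gene levels was not tested.

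**Figure D5:**
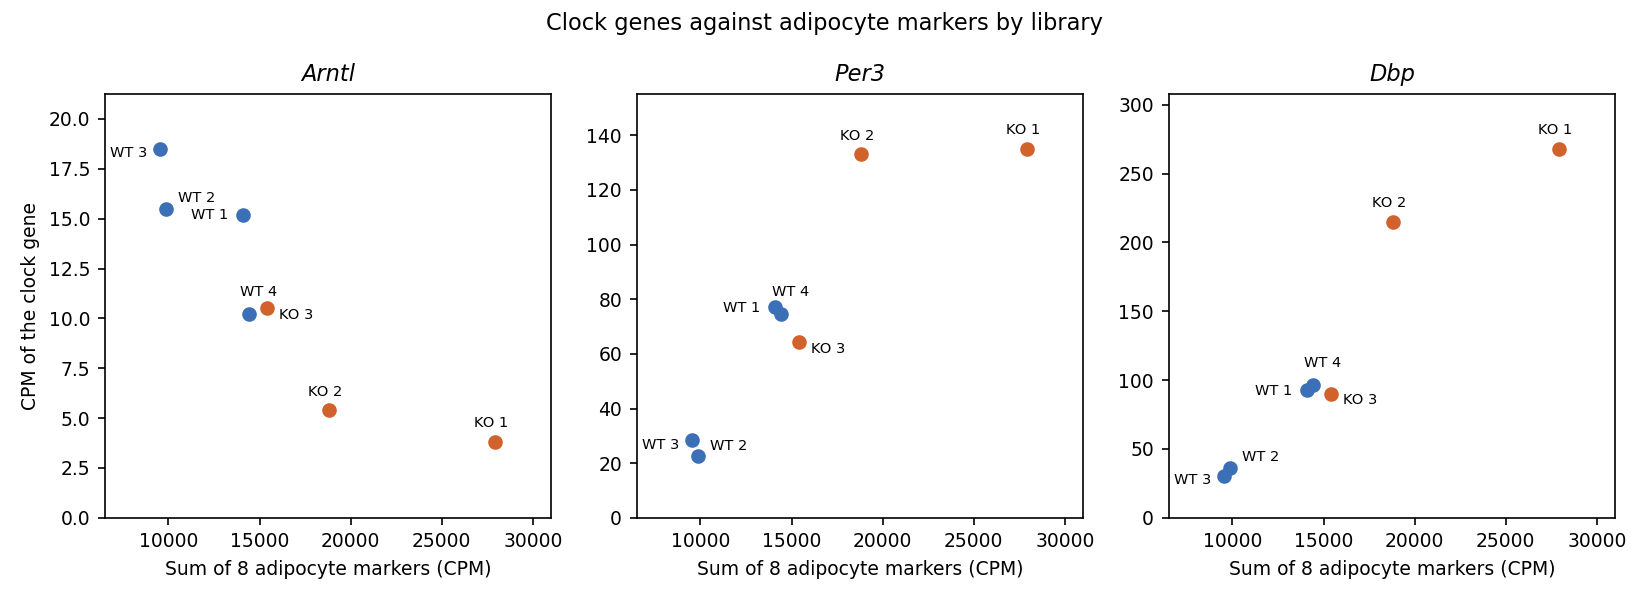
CPM of Arntl, Per3 and Dbp (vertical) against the summed CPM of 8 adipocyte markers (horizontal) in each library, WT in blue and KO in orange. Arntl is lower and Dbp higher toward the right of the axis, from WT 2 and WT 3 at the left to KO 1, at 27900 CPM, on the right.

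Likeness to Arntl was also ranked over all genes of sufficient level. The extremes of so many genes over only 7 libraries would exceed a short named list in any case. That they lay beyond the clock genes is therefore no result about the clock genes. By Pearson r of log2 CPM over the 7 libraries, given as a description of likeness between genes that share those libraries, the 5 genes nearest to Arntl among 15032 were Wdr36 (0.979), Tnfrsf11a (0.976), Hs3st3a1 (0.975), Diras2 (0.975) and Pom121 (0.975). The most opposite were Maco1 (-0.992), Gm38952 (-0.990), Bnip3l-ps (-0.987), Gm46277 (-0.985) and Cmc1 (-0.983). Npas2 had 0.796, which ranked 980 from the top, and Clock 0.699, which ranked 2025. On the opposite side the nearest clock genes were Usp2 (-0.972, rank 14 from the bottom), Tef (-0.949, rank 80) and Ciart (-0.945, rank 93), ahead of the members Per2 (-0.881, rank 449), Per3 (-0.839, rank 772) and Nr1d2 (-0.774, rank 1464). Nr1d1 (-0.662, rank 2599), Cry2 (-0.637, rank 2840), Cry1 (-0.582, rank 3311) and Per1 (-0.435, rank 4446) lay farther from that end.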

How the data were processed

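The authors deposited raw read counts per Entrez gene for 7 libraries (4 WT, 3 KO). Per the labels' protocols, Trizol RNA went into a stranded mRNA library kit. Per the submitters' processing notes, bcl2fastq 2.20.0, Trimmomatic, HISAT2 2.1.0, StringTie 1.3.4d and DESeq2 were used with mm10. Which annotation, counting rule and strand setting were used is not given in the sources. The design text speaks of biological replicates, so p-values measure the spread between animals as labelled.

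Symbols came from a RefSeq table of GRCm38.p6, in which 29444 of 29517 identifiers matched. Low genes were removed with edgeR 4.0.16 in R 4.3.3 (filterByExpr, minimum count 10). The rest were scaled by TMM, edgeR's trimmed mean of M values, and compared, KO minus WT, by the quasi-likelihood F-test with no covariate. P-values were adjusted by Benjamini-Hochberg over all 19185 genes. SEs were computed from the F statistic. The fit was first tested on simulated data. CPM values use the TMM-scaled library size, and log2 CPM a prior count of 2. CPM per kb divides by the union of GENCODE exons. Alternatives included DESeq2 1.42.0 and limma 3.58.1 (voom). Every pair of libraries differed by more than sampling noise (chi-square per degree of freedom 96.4 to 513). All 10 members were named, with further clock genes at an unadjusted p under 0.05 or leading their list, and the 5 genes most and least like Arntl. Other genes were named as examples of their list after their values were seen. The members and lists were chosen with earlier results of these data known. A few clock genes are not reported here and are in no list or count.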

Additional observations from a re-analysis of the deposited data

How the results depend on the processing

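The clock genes were refitted under 17 alternatives, of which leaving out WT 2 and WT 4 together was chosen after seeing the data. Of 170 values of members, 144 kept their sign and their side of an unadjusted p of 0.05, 15 lost that p, 6 gained it and 5 changed sign. The changes of sign were in small values: with total counts alone Per1 had -0.069 and Cry1 -0.032, without WT 2 and WT 4 Per1 had -0.050, and Clock, which ran from -0.335 to 0.030 without single libraries, changed sign without WT 3 and without KO 1. The cause was not tested. Total counts alone shifted the median over the table from -0.04 to -0.35 (log2) and the share of higher genes among those at an unadjusted p under 0.05 from 56.4% to 12.5%. Relative to that median Per1 and Cry1 stayed above. The number of genes called by adjusted p, 0 in edgeR, was 1 with total counts alone, 2158 with DESeq2, 1 with limma-voom and 1 with the replicate block, and 0 to 0 when single libraries were left out. The 3 members higher at an unadjusted p under 0.05 became 1 with total counts alone, 1 without WT 2 and WT 4 and 5 without KO 3 and WT 4. Over all genes, that side moved too, from 2363 of 19185 to 694 of 19185, 1636 of 19133 and 2157 of 19522 in these settings. When single libraries were left out, 1 to 5 members were higher, beside 1383 (without KO 1) to 2419 (without KO 3) of all genes. The 2 lower members became 1 to 2, beside 948 (without KO 1) to 2217 (without KO 3) of all genes. The difference between activators and repressors moved by more than the SD of the libraries in 1 of 19 settings, without KO 3 and WT 4 (-2.37). It ran from -2.12 to -1.46 without single libraries.

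WT and KO share replicate numbers, and the labels do not say whether these numbers pair animals. Deviations from the group means correlated at 0.223, -0.171 and -0.0184 for numbers 1 to 3. Not every library correlated best with its own number. So few correlations cannot decide whether animals were paired. With the replicate number as a block, which leaves out WT 4, 2 members were higher and 2 lower, and Nr1d1 had 0.56 (unadjusted p = 0.124). Depth did not limit most members, the lowest being Npas2 with 28 counts in KO 1.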

Other observations

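Per1 also answers to glucocorticoids, and the further genes of that response did not share 1 direction. Of 8 such genes, 1 had an unadjusted p under 0.05 on the higher side and 1 on the lower side, near the 12.3% and 9.51% of all genes. Their log2 fold changes had a median of -0.01. Rasd1, a small GTPase gene induced by dexamethasone, had 67.4, 55.7, 48.0 and 64.0 CPM in WT 1 to WT 4 and 218, 147 and 190 CPM in KO 1 to KO 3. All 3 KO libraries lay above every WT library, KO 3 included, which is not the order seen in Per2, Per3 or Dbp. Its log2 fold change was 1.65 (SE 0.18, edgeR unadjusted p = 1.66e-05, adjusted p = 0.0798). Errfi1 had -1.46 (SE 0.47, edgeR unadjusted p = 0.0144), Zbtb16 -1.55 (unadjusted p = 0.0605), and Fkbp5, a standard marker of the response, 0.12 (unadjusted p = 0.752). Of 7 immediate early genes, which handling of the tissue can induce, 1 had an unadjusted p under 0.05 on the lower side (9.51% of all genes did), Nr4a1 at -0.70 (SE 0.20, unadjusted p = 0.00887), and the median was 0.01.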
